A study of Mus musculus with 8 samples.

Results

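The colony-stimulating factor gene *Csf1* and 7 receptor genes of blood-forming and myeloid cells, *Csf1r*, *Csf2ra*, *Csf2rb*, *Csf2rb2*, *Csf3r*, *Kit*, and *Flt3*, were followed in RNA from sorted growth plate cells of young mice. They were chosen by name, and all 8 were present among the 16536 genes of the count table. *Csf3r*, which encodes the receptor for granulocyte colony-stimulating factor, was expressed 2.25-fold higher after SAG than after its vehicle DMSO. The levels of *Csf2ra* and *Csf2rb*, which encode the subunits of the GM-CSF receptor, were 2.17-fold and 1.98-fold those of the controls, and they missed the threshold narrowly. With 1 mouse left out at a time, *Csf3r* passed the threshold in 3 of 8 fits. A set of 5 general leukocyte genes was 1.24 higher with SAG on the log2 scale. Relative to that set, *Csf3r*, *Csf2ra*, and *Csf2rb* overlapped between the groups. *Csf1* and its receptor gene *Csf1r* differed by 1.04-fold and 1.13-fold, within the spread between mice.

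All 8 mice carried the Pthrp-mCherry reporter, in which mCherry marks cells that transcribe *Pthlh*. They received SAG, a small-molecule agonist of Smoothened that activates hedgehog signaling, or its vehicle DMSO (4 mice each). Daily i.p. injections of 25 μg SAG per g of body weight ran from P30 to P36 by the labels, and the study's methods place both days 1 day later. The mice were sacrificed at P38, and mCherry+CD73+ cells were sorted from both femoral growth plates of each mouse, so that 1 library stands for 1 mouse. The labels describe the tissue as metaphyseal growth plate and give neither sex nor litter.

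Colony-stimulating factors are secreted proteins that keep blood cell precursors alive, drive their division, and set which myeloid cells they become. Their receptors fall into 2 families: *Csf2ra*, *Csf2rb*, *Csf2rb2*, and *Csf3r* encode cytokine receptors without enzyme activity of their own, which signal through Janus kinases and STAT proteins, whereas *Csf1r*, *Kit*, and *Flt3* encode related receptor tyrosine kinases. In bone, CSF1 is made by stromal and skeletal cells and is needed for macrophages and osteoclasts, while the receptors are known mainly from blood-forming cells in the marrow.

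*Csf2rb* and *Csf2rb2* are neighboring copies on chromosome 15, and how far reads can tell them apart bears on every value given for them. *Csf2rb* (ENSMUSG00000071713.6, plus strand, 78325752 to 78353847 of GRCm38) encodes the β subunit shared by the receptors for GM-CSF, IL-3, and IL-5. *Csf2rb2* (ENSMUSG00000071714.7, minus strand, 78282507 to 78305721) encodes a β subunit that serves IL-3 in mice. The genes lie 20030 bp apart. Their coding sequences in GENCODE release M21, of 2688 and 2634 bases, were identical at 95.2% of 2628 aligned positions. Of the distinct 31-base stretches in the transcripts of *Csf2rb*, 18.8% also occurred in those of *Csf2rb2*, and of those in *Csf2rb2* 28.6% occurred in *Csf2rb*. The 90 coding bases inside a single exon that differed most between the copies are shown with the 16 differing bases in capitals, because reads can be assigned to 1 copy only where such bases lie. They run over chr15:78338897-78338986 (plus strand, exon 5 of *Csf2rb*) and chr15:78294345-78294434 (minus strand, exon 4 of *Csf2rb2*).
Csf2rb: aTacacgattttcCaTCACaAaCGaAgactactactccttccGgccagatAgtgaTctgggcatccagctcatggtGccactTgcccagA
Csf2rb2: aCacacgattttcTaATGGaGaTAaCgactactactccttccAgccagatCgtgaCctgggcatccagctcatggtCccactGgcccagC

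By contrast, the longest stretch without any difference inside an exon was 242 coding bases, which is printed once because both copies hold it, at chr15:78348577-78348818 in exon 15 of *Csf2rb* and at chr15:78284630-78284871 in exon 14 of *Csf2rb2*. A read that falls wholly within it has no base that names its gene.
Shared stretch: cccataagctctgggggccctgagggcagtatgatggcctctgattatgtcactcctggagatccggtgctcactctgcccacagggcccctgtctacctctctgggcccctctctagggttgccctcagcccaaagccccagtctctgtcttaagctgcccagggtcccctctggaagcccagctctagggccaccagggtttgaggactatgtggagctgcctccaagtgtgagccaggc

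The authors deposited whole-number counts per gene, of 24971992 to 46593090 per library. Counts were put on a counts-per-million (CPM) scale with edgeR's TMM method, which corrects for library size and composition, and SAG was compared with DMSO by its quasi-likelihood test on the 15421 genes that passed the filter on low counts, all 8 members among them. P-values were adjusted over all of these genes by the Benjamini-Hochberg method, and a gene was called at an adjusted p under 0.05. At these depths 3 counts correspond to at most 0.114 CPM, a floor that covers counting error only. DMSO replicate 4 stood apart. It had the fewest counts and the fewest detected genes (14416), and its rank correlation with the other DMSO libraries, computed over genes that are not independent of each other, was 0.834 to 0.868 against 0.926 to 0.938 among those (Spearman's rho). Results that change without it are given both ways.

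Of the 8 members, 1 was called higher, against 2.62% of all tested genes, and 0 were called lower, against 0.266% of all tested genes (edgeR). In the same test 3 members were higher and 0 lower when p was left unadjusted at a threshold of 0.05, against 9.58% and 6.5% of all tested genes. DESeq2's Wald test and limma voom each called 3 members higher and 0 lower. Of the 11992 genes with an adjusted p, DESeq2 called 6.82% higher and 3.45% lower, and limma voom called 6.37% and 2.52% of all tested genes. The 3 were *Csf3r*, *Csf2ra*, and *Csf2rb*, and in each of them the SAG-treated mice all lay above the highest control. Groups that did not overlap in this direction were found in 7.9% of all tested genes, and in 0 members did the SAG-treated mice all lie below the lowest control, against 3.84% of all tested genes. The median log2 fold change was 0.41 over the members and -0.08 over all tested genes.

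**Figure D1:**
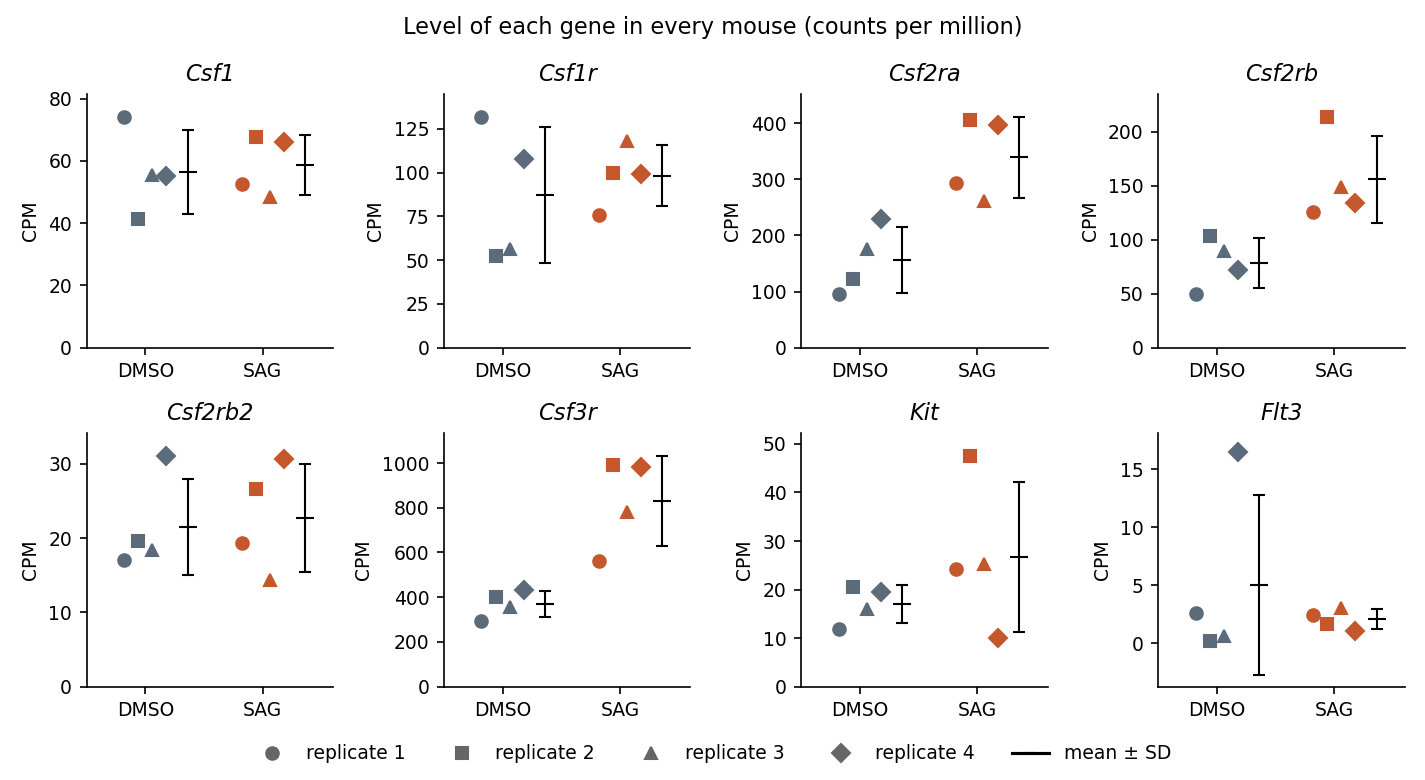
CPM (linear axis, 1 panel per gene) of each gene in every mouse (points, marker shape by replicate number, which does not pair the mice) with the mean and SD of 4 mice per group. All SAG-treated mice lie above the highest control for *Csf2ra*, *Csf2rb*, and *Csf3r*, and *Flt3* in the DMSO group is spread from 0.179 to 16.5 CPM.

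*Csf1*, the only ligand gene among the members, encodes macrophage colony-stimulating factor (ENSMUSG00000014599.10, chromosome 3, minus strand, 107741048 to 107760469). Its level in DMSO replicates 1 to 4 was 74.2, 41.4, 55.3, and 55.1 CPM. In SAG replicates 1 to 4 it was 52.4, 67.5, 48.4, and 66.1 CPM. The SAG-treated mice fell inside the range of the DMSO-treated mice, and both the highest and the lowest mouse had received DMSO. The means were 56.5 ± 13.5 CPM and 58.6 ± 9.62 CPM (SD, n = 4 each). The log2 fold change was 0.05 with a standard error of 0.23 (edgeR, adjusted p = 0.948) and a 95% interval from -0.45 to 0.56.

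*Csf1r* (ENSMUSG00000024621.16, chromosome 18, plus strand, 61100598 to 61132149) encodes the receptor for CSF1 and IL-34, a marker of monocytes, macrophages, and osteoclast precursors. Its level was 132, 52.5, 56.4, and 108 CPM in DMSO replicates 1 to 4 and 75.8, 99.9, 118, and 99.0 CPM in SAG replicates 1 to 4. The DMSO-treated mice formed a lower and a higher pair, SAG replicates 1, 2, and 4 lay between these pairs, and SAG replicate 3 lay within the higher one. The log2 fold change was 0.17 with a standard error of 0.30 (edgeR, adjusted p = 0.853). The gene overlaps *Hmgxb3* on the opposite strand, which was also in the table.

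*Csf3r* (ENSMUSG00000028859.14, chromosome 4, plus strand, 126024550 to 126044440) encodes the receptor through which G-CSF drives the production of neutrophils. Its level was 295, 399.7, 354, and 431 CPM in DMSO replicates 1 to 4. In SAG replicates 1 to 4 it was 564, 991, 782, and 984 CPM. The lowest SAG-treated mouse was above the highest DMSO-treated mouse, and the SAG group was also the more widely spread, with 830.2 ± 203 CPM against 369.8 ± 59.1 CPM (SD, n = 4 each). The log2 fold change was 1.17 with a standard error of 0.22 (edgeR, adjusted p = 0.0175), which ranked 183 by p among all tested genes. Leaving out 1 mouse at a time kept the log2 fold change between 1.07 and 1.32, whereas the adjusted p was above 0.05 without DMSO replicate 1 (0.0536), 2 (0.0642), or 3 (0.0826) and without SAG replicate 2 (0.058) or 4 (0.0697), all from edgeR.

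*Csf2ra* (ENSMUSG00000059326.7, chromosome 19, minus strand, 61223957 to 61228429) encodes the α subunit that binds GM-CSF. It was measured at 95.4, 123, 176, and 229 CPM in DMSO replicates 1 to 4 and at 293, 405, 262, and 396 CPM in SAG replicates 1 to 4. DMSO replicate 4 was the control nearest to the SAG-treated mice, and the groups did not overlap. The means were 156 ± 59.1 CPM and 339 ± 72.5 CPM (SD, n = 4 each), a log2 fold change of 1.12 with a standard error of 0.27 (edgeR, adjusted p = 0.0538). Without DMSO replicate 4 it was 1.39 (edgeR, adjusted p = 0.00518). That was the only 1 of the 8 fits with a mouse left out in which *Csf2ra* was called. The adjusted p reached 0.163 in the others (edgeR).

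*Csf2rb*, whose product joins the α subunit to form the signaling receptor, was measured at 49.7, 103, 89.3, and 72.0 CPM in DMSO replicates 1 to 4 and at 126, 214, 149, and 134 CPM in SAG replicates 1 to 4. SAG replicate 2 was far above the other 3, which lay closer together and above the highest control. The means were 78.5 ± 23.0 CPM and 156 ± 40.2 CPM (SD, n = 4 each), a log2 fold change of 0.99 with a standard error of 0.26 (edgeR, adjusted p = 0.0663). Without DMSO replicate 4 the log2 fold change was 0.98 and the adjusted p 0.0455 (edgeR). *Csf2rb* was called in only this 1 of the 8 fits with a mouse left out, and the adjusted p reached 0.207 in the others (edgeR).

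*Csf2rb2*, the neighboring copy, was measured at 17.0, 19.6, 18.4, and 31.1 CPM in DMSO replicates 1 to 4 and at 19.3, 26.6, 14.3, and 30.6 CPM in SAG replicates 1 to 4. The groups covered nearly the same range, with a log2 fold change of 0.08, a standard error of 0.33, and a 95% interval from -0.65 to 0.81 (edgeR, adjusted p = 0.946). The ratio of *Csf2rb* CPM to *Csf2rb2* CPM, which is not corrected for length and is used only between mice, was 2.92, 5.26, 4.85, and 2.32 in DMSO replicates 1 to 4 and 6.52, 8.05, 10.4, and 4.38 in SAG replicates 1 to 4. SAG replicate 4 lay inside the range of the controls, and the other 3 lay above it. The mean log2 ratio was 1.86 ± 0.57 with DMSO and 2.80 ± 0.53 with SAG (SD, n = 4 each), and the difference of 0.95 had a 2-sided p of 0.0857 in the exact permutation test over 70 relabellings, where 0.0286 is the smallest p possible. A difference between the copies in their response was therefore not established. How the counting divided reads from shared stretches between them was not tested.

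**Figure D2:**
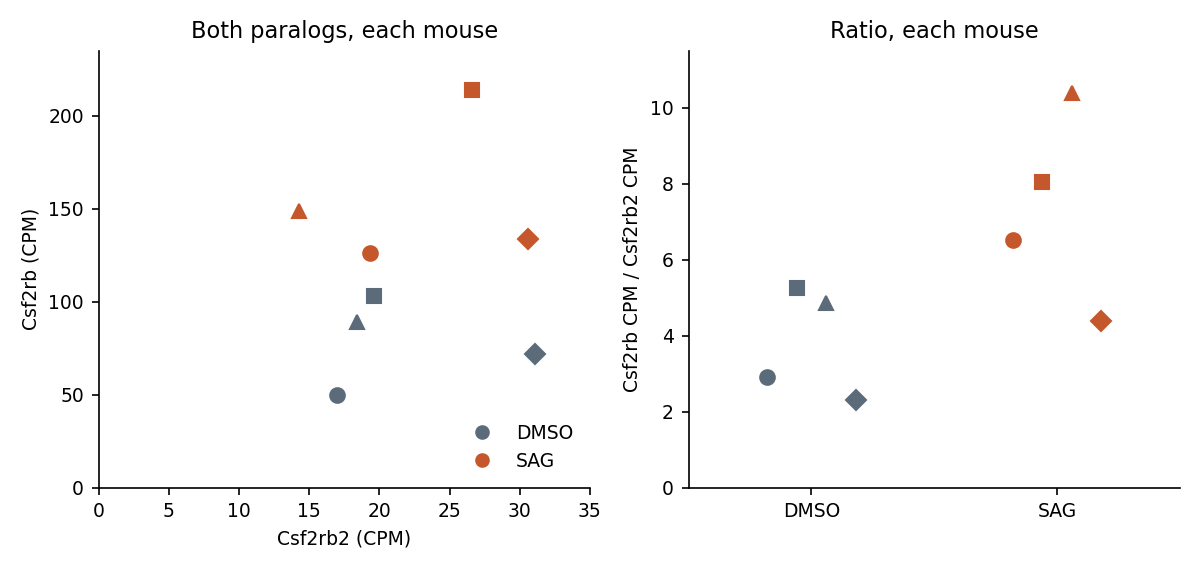
Left, CPM of *Csf2rb* against *Csf2rb2* in every mouse; right, their ratio in every mouse by group, with marker shape by replicate number. The ratio runs from 2.32 to 5.26 with DMSO and from 4.38 to 10.4 with SAG.

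*Kit* (ENSMUSG00000005672.12, chromosome 5, plus strand, 75574916 to 75656722) encodes the receptor for stem cell factor, found on blood progenitors and mast cells. Its level was 11.9, 20.5, 16.1, and 19.5 CPM in DMSO replicates 1 to 4 and 24.2, 47.6, 25.2, and 9.94 CPM in SAG replicates 1 to 4. Of the SAG-treated mice 3 were above every control and the other was below every control, so the groups overlapped. The log2 fold change was 0.65 with a standard error of 0.43 (edgeR, adjusted p = 0.516). *Myb*, a transcription factor gene of progenitors, ranked the SAG-treated mice in the same order, with 161, 409, 200.2, and 111 CPM in SAG replicates 1 to 4. In DMSO replicates 1 to 4 it had 82.9, 225, 267, and 346 CPM, a different order from that of *Kit*. *Myb* was chosen for this comparison after its values were seen, and its part in the *Kit* values was not tested.

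*Flt3* (ENSMUSG00000042817.15, chromosome 5, minus strand, 147330741 to 147400489) encodes the receptor for FLT3 ligand on early lymphoid, myeloid, and dendritic cell progenitors. It rested on few reads, with 111, 8, 21, and 435 counts in DMSO replicates 1 to 4 and 86, 68, 122, and 48 counts in SAG replicates 1 to 4. These correspond to 2.59, 0.179, 0.634, and 16.5 CPM and to 2.47, 1.62, 3.04, and 1.09 CPM. DMSO replicate 4 was far above all other mice, and the 4 SAG-treated mice lay within the range of the other 3 controls or just above it. The log2 fold change was -1.27 with a standard error of 1.17 (edgeR, adjusted p = 0.678), and without DMSO replicate 4 it turned to 0.89 (edgeR, adjusted p = 0.719). The lower mean with SAG rested on that 1 library.

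**Figure D3:**
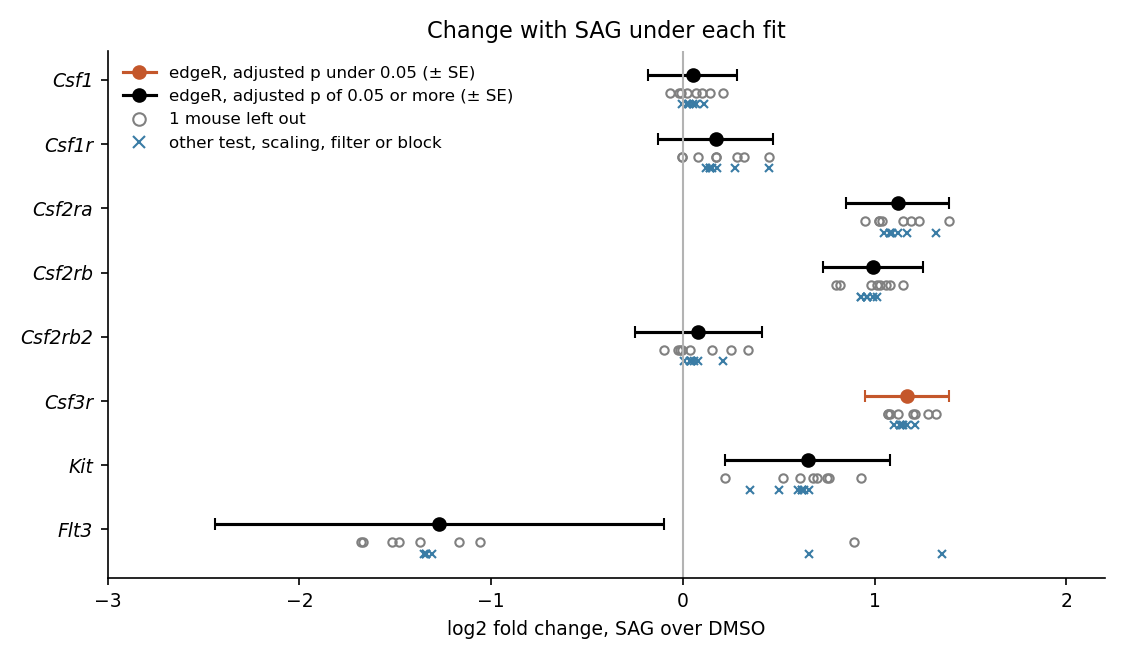
Log2 fold change of each gene, SAG over DMSO, from edgeR with its standard error (filled circles), with each mouse left out in turn (open circles), and under other tests, scalings, filters, or the replicate block (crosses). *Csf3r*, *Csf2ra*, and *Csf2rb* stay at 0.80 or above in every fit, whereas *Flt3* runs from -1.68 to 1.35.

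Levels were compared between genes per kilobase of exon. In DMSO-treated mice the order was *Csf3r* (102 ± 16.4 CPM per kilobase), *Csf2ra* (54.3 ± 20.6), *Csf1r* (15.1 ± 6.74), *Csf2rb* (10.8 ± 3.16), *Csf1* (10.7 ± 2.55), *Csf2rb2* (4.54 ± 1.36), *Kit* (1.91 ± 0.433), and *Flt3* (0.806 ± 1.26), all as mean ± SD with n = 4. *Csf1r*, *Csf2rb*, and *Csf1* overlapped between mice, as did *Kit* and *Flt3*, and the other neighbors in this order did not. In SAG-treated mice *Csf2rb* (21.4 ± 5.53 CPM per kilobase) and *Csf1r* (17.0 ± 3.01) changed places with overlapping values, and the rest of the order was the same. *Csf3r* stood at 230 ± 56.1 and *Csf2ra* at 118 ± 25.2 CPM per kilobase in that group. The ratio of *Csf3r* CPM to *Csf2ra* CPM was nearly the same in both groups, with a mean log2 ratio of 1.31 ± 0.41 with DMSO and 1.28 ± 0.26 with SAG (SD, n = 4 each). That of *Csf3r* to *Csf1r* was 2.24 to 7.61 with DMSO and 6.62 to 9.94 with SAG, ranges that overlapped. These ratios were chosen after the values were seen and were not tested.

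Cell types that carry these receptors were followed through fixed lists of marker genes. In bulk RNA, fewer cells of a type and less RNA per cell cannot be told apart. Over all tested genes edgeR called 2.62% higher and 0.266% lower. Of 12 neutrophil markers, 9 were called higher and 0 lower by edgeR (10 and 0 by DESeq2, by limma voom, and at an unadjusted p under 0.05), and their summed level was 4839 to 14471 CPM with DMSO and 27654 to 43844 CPM with SAG. *S100a8* averaged 1098 CPM in the controls and 5231 CPM with SAG, and *S100a9* 2488 and 9970.2 CPM. Of 12 monocyte and macrophage markers, 1 was called higher (*Ly6c2*, log2 fold change 1.48) and 0 lower by edgeR (3 and 0 by DESeq2, by limma voom, and unadjusted), with sums of 792 to 2104 CPM and 2288 to 3433 CPM. Without *Lyz2*, which neutrophils also express, the sums of the other 11 were 395 to 714 CPM and 706 to 963 CPM and overlapped, as did 9 of the 12 markers. *Adgre1* averaged 28.9 and 38.5 CPM and *Cd68* 51.7 and 60.8 CPM, with overlapping groups for both. Of 8 tested B-lineage markers, 0 were called higher and 3 lower by edgeR (0 and 8 unadjusted, 0 and 6 by DESeq2, and 0 and 2 by limma voom). The sums over all 9 in the table were 78.8 to 352 CPM and 17.9 to 38.4 CPM. *Cd79a* averaged 28.5 CPM with DMSO and 4.47 CPM with SAG, and *Cd79b* 14.5 and 1.63 CPM. DMSO replicate 4, the mouse with the most *Flt3*, also had the largest B-lineage sum. DMSO replicate 3 had the next largest, 242 CPM, with *Flt3* at 0.634 CPM. This comparison was chosen after the values were seen and was not tested.

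Among the other lists of cell types, 0 of 41 tested genes were called in either direction by edgeR. Unadjusted p-values under 0.05 were found for 2 genes that were higher and 11 that were lower, against 9.58% and 6.5% of all tested genes. All 7 chondrocyte markers were among the 11. DESeq2 called 0 higher and 5 lower, against 6.82% and 3.45% of genes with an adjusted p. With limma voom it was 1 higher and 6 lower, against 6.37% and 2.52% of all tested genes. Of these lower genes, 4 with DESeq2 and 6 with limma voom were chondrocyte genes. The summed levels of 5 osteoclast markers, 4 of them tested (43.0 to 96.9 CPM with DMSO and 18.9 to 53.6 CPM with SAG), of 7 hematopoietic progenitor markers (192 to 404 and 152 to 464 CPM), and of 4 mast cell and basophil markers (220.0 to 523 and 366 to 815 CPM) overlapped between the groups. So did those of 7 dendritic cell markers, 4 endothelial markers, and 6 marrow stroma and osteoblast markers. *Acp5* averaged 21.9 and 4.97 CPM, *Ctsk* 34.9 and 28.1 CPM, *Cd34* 36.3 and 17.6 CPM, and *Gata2* 19.4 and 13.7 CPM in DMSO- and SAG-treated mice. The mast cell genes *Cpa3* (6.54 and 5.09 CPM) and *Ms4a2* (4.09 and 5.22 CPM) overlapped between the groups and were at 0 in DMSO replicate 4. In the same order of groups, the dendritic cell genes *Siglech* and *Cd209a* averaged 2.51 and 2.53 CPM and 4.73 and 1.05 CPM, and the endothelial genes *Pecam1* and *Cdh5* 41.3 and 36.3 CPM and 10.3 and 4.30 CPM. The stromal genes *Cxcl12* and *Lepr* averaged 24.1 and 47.3 CPM and 3.27 and 4.34 CPM. Of these 6 genes, *Cd209a* was lower in the SAG-treated mice without overlap (edgeR, adjusted p = 0.465). In the whole list of 7 dendritic cell markers, 1 was lower and 1 higher without overlap, against 3.84% and 7.9% of all tested genes. Chondrocyte markers, led by *Col2a1* and *Acan*, were abundant in every mouse, at 39811 to 87937 CPM with DMSO and 15092 to 43279 CPM with SAG, and all 7 had log2 fold changes below 0. The sorted-cell markers *Pthlh* (18.5 and 23.8 CPM) and *Nt5e*, the gene of CD73 (228 and 159 CPM), were detected in every mouse. *Nt5e* was lower in each SAG-treated mouse than in the lowest control, with a log2 fold change of -0.51 (edgeR, adjusted p = 0.186). No marker in the table was at 0 in all 8 mice.

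To place the receptors within the blood cell signal, the log2 CPM of each member was set against the mean log2 CPM of *Ptprc*, *Coro1a*, *Laptm5*, *Cd53*, and *Lcp1*, genes of leukocytes in general, in the same mouse. That reference averaged 7.44 with DMSO and 8.68 with SAG, a difference of 1.24, and 4 of its 5 genes were called higher (edgeR). Relative to it, *Csf3r* was at 1.08 ± 0.31 with DMSO and 0.98 ± 0.19 with SAG (log2 scale, SD, n = 4 each), a difference of -0.09. *Csf2ra* differed by -0.06 and *Csf2rb* by -0.23, and all 3 overlapped between the groups. *Csf1* and *Csf2rb2* were lower relative to the reference in every SAG-treated mouse than in every DMSO-treated mouse, with differences of -1.17 and -1.18 on the log2 scale. Thus 2 members were lower without overlap, against 34.8% of all tested genes, and 0 were higher without overlap, against 0.551% of all tested genes, and the members' share was no larger than this background. *Csf1r* differed by -0.97, *Kit* by -0.76, and *Flt3* by -0.96, with overlapping groups. With *Ptprc* alone as the reference, *Csf1r* also ceased to overlap, with a difference of -1.03.

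**Figure D4:**
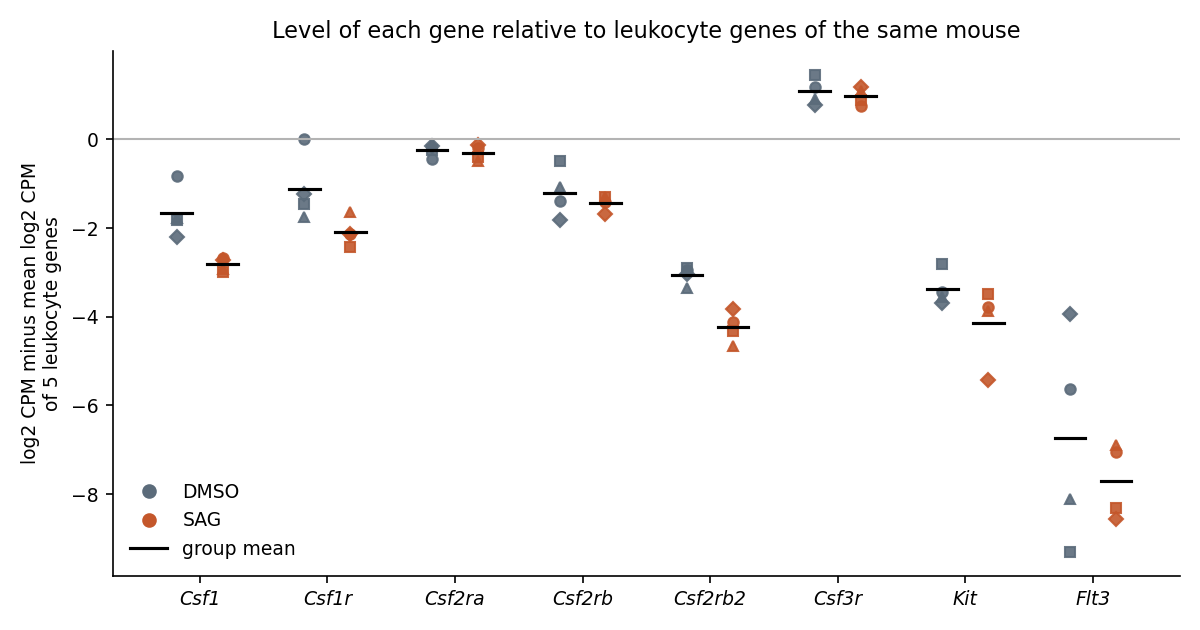
Log2 CPM of each gene minus the mean log2 CPM of 5 leukocyte genes in the same mouse (points, marker shape by replicate number), with the mean of 4 mice per group as a bar. *Csf2ra*, *Csf2rb*, and *Csf3r* overlap between DMSO and SAG, and *Csf1* and *Csf2rb2* do not.

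Other ligands and subunits of these receptors were tested next together with 3 receptor genes of other cytokines (*Epor*, *Il6ra*, and *Il6st*), and 0 of 8 were called in either direction by edgeR, with unadjusted p-values under 0.05 for *Il3ra*, which was higher, and *Il6st*, which was lower. DESeq2 called 1 higher, and limma voom called 0. *Csf2*, *Csf3*, *Il3*, and *Il5*, the genes of GM-CSF, G-CSF, IL-3, and IL-5, were absent from the count table, so they could not be analysed here. *Il34*, which encodes the second ligand of the CSF1 receptor, averaged 3.56 CPM with DMSO and 3.50 CPM with SAG, *Kitl*, the gene of stem cell factor, 2.89 and 1.55 CPM, and *Flt3l*, the gene of FLT3 ligand, 6.44 and 9.64 CPM. These ligand genes overlapped between the groups, and *Kitl* was at 0 in 2 of the controls.

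*Il3ra*, the α subunit that pairs with both β subunits to bind IL-3, was at 3.19, 4.60, 6.22, and 6.68 CPM in DMSO replicates 1 to 4 and at 17.2, 17.8, 11.4, and 7.16 CPM in SAG replicates 1 to 4. All SAG-treated mice lay above the highest control, SAG replicate 4 only just, and the log2 fold change was 1.37 with a standard error of 0.46 (edgeR, adjusted p = 0.154). *Il5ra*, the α subunit for IL-5, ranged from 1.37 to 38.8 CPM with DMSO and from 5.26 to 45.5 CPM with SAG, and its log2 fold change was 0.40. *Epor*, the receptor gene for erythropoietin, had a log2 fold change of -0.80 at a mean level of 5.05 CPM in the controls. *Il6ra* and *Il6st*, which encode the IL-6 receptor and its signaling subunit, had 0.12 and -0.60, and *Il6st* had an unadjusted p of 0.0457 (edgeR, adjusted p = 0.297).

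Of 34 kinases, STAT proteins, adaptors, and feedback inhibitors that act below these receptors, edgeR called 3 higher and 0 lower. Over all tested genes it called 2.62% and 0.266%. Its unadjusted p was under 0.05 for 16 of higher and 2 of lower level, against 9.58% and 6.5%. DESeq2 called 10 higher and 1 lower, against 6.82% and 3.45% of genes with an adjusted p. With limma voom it was 15 higher and 1 lower, against 6.37% and 2.52% of all tested genes. The median log2 fold change of the list was 0.49 against -0.08 over all tested genes. In 10 of its genes all SAG-treated mice lay above the highest control, against 7.9% of all tested genes. The leukocyte reference itself was 1.24 higher with SAG on the log2 scale, and these genes were not set against it. *Fgr*, which encodes a Src-family kinase of myeloid cells, was at 53.2, 48.2, 54.5, and 69.5 CPM in DMSO replicates 1 to 4 and at 158, 211, 157, and 201 CPM in SAG replicates 1 to 4, 2 narrow groups far apart, with a log2 fold change of 1.69 and a standard error of 0.19 (edgeR, adjusted p = 0.00853). *Pik3cg*, the catalytic subunit of the PI3-kinase of leukocytes, rose from 32.8 ± 7.63 to 95.3 ± 29.6 CPM (edgeR, adjusted p = 0.0146). *Ptpn6*, which encodes the phosphatase SHP-1 that limits cytokine receptor signaling, rose from 326 ± 146 to 789 ± 190.0 CPM with an adjusted p of 0.04996 (edgeR), all as SD with n = 4 each.

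The Janus kinase and STAT genes most often used by these receptors were near the level of the controls. Their log2 fold changes were 0.19 for *Jak2*, 0.11 for *Stat3*, 0.14 for *Stat5a*, and 0.14 for *Stat5b*, none of them called by edgeR and each with overlapping groups. Feedback inhibitors that STAT proteins induce did not pass the test either, with 0.29 for *Cish*, -1.27 for *Socs1*, -0.74 for *Socs2*, and -0.45 for *Socs3*. *Socs1* had an unadjusted p of 0.0102 (edgeR, adjusted p = 0.138).

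**Figure D5:**
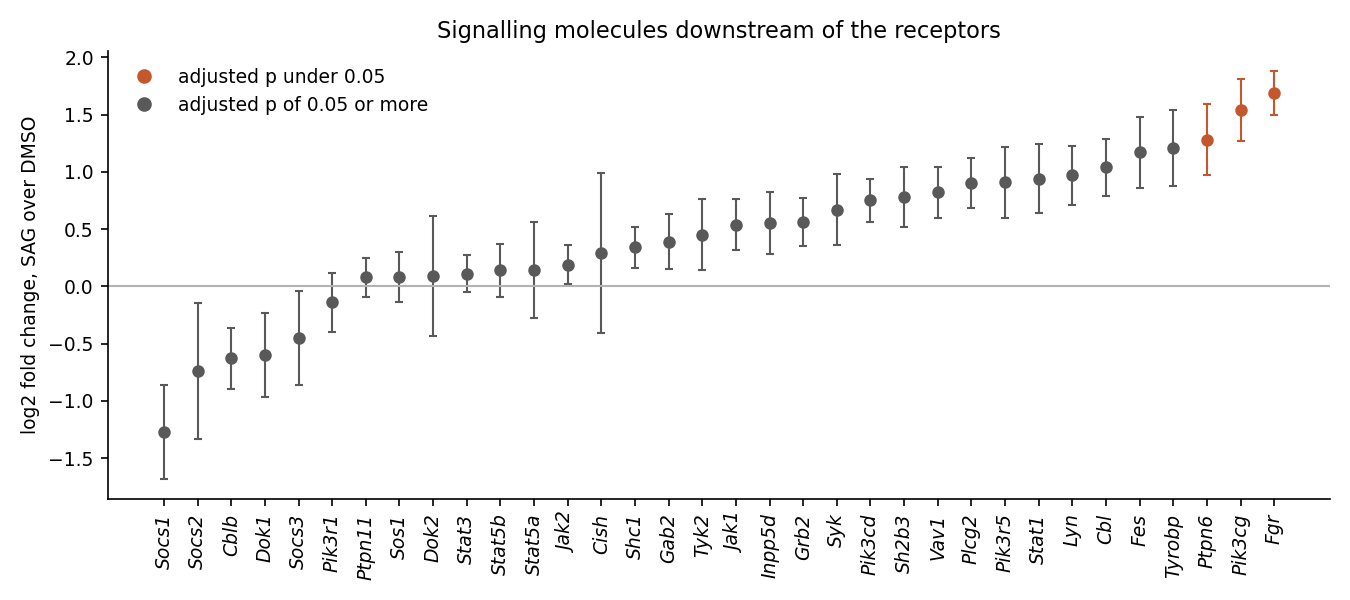
Log2 fold change (SAG over DMSO) of the 34 signaling genes with the standard error from edgeR, in order of size. The 3 called genes, *Ptpn6*, *Pik3cg*, and *Fgr*, lie at the upper end, and 6 genes lie below 0.

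Deviations of log2 CPM from the group mean were compared over the 8 mice, as a description, among 14337 genes. The genes most like *Csf3r* were *Tfip11* (r = 0.99) and *Olfr1118* (0.989), those most like *Csf2ra* were *Fgd4* and *Prdx6* (0.986 each), and those most like *Csf2rb* were *Eml5* (0.993) and *Ear2* (0.987). For *Csf2rb2* they were *Clk2* (0.979) and *Zfp972* (0.971), for *Csf1* *Emc2* (0.992) and *Slco4c1* (0.977), and for *Csf1r* *Aif1l* (0.971) and *Keap1* (0.967). For *Kit* they were *Kifc5b* (0.974) and *Hist2h2ab* (0.963), and for *Flt3* *Smarcd1* (0.989) and *Rabif* (0.983). With so many genes and 8 mice, values this high are the extremes of a long list. Over all pairs of members r ran from -0.61 for *Csf1r* with *Csf2rb* to 0.81 for *Csf2ra* with *Csf2rb2*. It was 0.40 for *Csf2ra* with *Csf2rb*, the subunits of 1 receptor, 0.16 for *Csf2rb* with its copy *Csf2rb2*, and 0.61 for *Csf1* with its receptor gene *Csf1r*, all within the same 8 libraries.

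For the called member, the 250 bases before the RefSeq transcription start of *Csf3r* (GRCm38) were searched on both strands for short letter patterns of factors that act in blood cells. For PU.1, a factor of myeloid cells, the pattern was its core GAGGAA. For C/EBP factors, which act in granulocytes, it was TTGCNNAA. For factors of the GATA family, which act in progenitors, mast cells, and red cells, it was AGATAA. For RUNX factors, which act in blood stem cells and their progeny, it was TGTGGT. The window held 1 match, to the PU.1 core, which begins 86 bases before that RefSeq start site. The GENCODE gene starts further upstream, at 126024550, so the match lies inside the gene as annotated there. It is shown in capitals with its surroundings at chr4:126024561-126024590, plus strand.
Csf3r: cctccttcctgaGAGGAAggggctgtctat

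Of 32851 windows of this length, 23.3% held the PU.1 core on either strand, 9.56% the C/EBP pattern, 9.99% the GATA pattern, and 14.0% the RUNX pattern. Promoter windows were available for 6 of the 8 members. The PU.1 core also occurred before the RefSeq starts of *Csf2ra*, *Csf2rb2*, and *Kit*, and the windows of *Csf1* and *Flt3* held none of the 4 motifs. A match of letters describes the window and was not tied to binding by any measurement here.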

How the data were processed

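Total RNA of sorted cells from 8 mice was extracted with a kit for small cell numbers, and stranded total RNA libraries were made from picogram amounts. The authors deposited raw counts per gene as whole numbers without normalization. The submitters' processing notes name kallisto, DESeq2, and GRCm38 without roles, so the step from reads to counts is not given in the sources used here, and if counts were estimated, reads shared by gene copies were divided by a model. All 8 libraries were matched by their labels and 0 rows were left over. All 16536 symbols were found in GENCODE release M21.

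R 4.3.3 was used with edgeR 4.0.16 (filterByExpr, TMM, robust quasi-likelihood test), limma 3.58.1, and DESeq2 1.42.0, and figures with matplotlib. Log2 CPM had a prior count of 2. Standard errors were derived from the fold change and F statistic, and 95% intervals use the t distribution with the degrees of freedom of the fit. Fits were also run on simulated data with larger fold changes than those of the members, which does not show how they perform at changes of this size. The edgeR p-values set the difference between the groups against the spread between these mice, estimated with information shared over genes.

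The members and gene lists were chosen with earlier results of these data known. Genes named were all members, all listed ligands and subunits, called signaling genes, the first 2 genes of each marker list, and the 2 genes most like each member; other named genes were chosen after their values were seen. Some listed genes are not reported here and were left out of the counts of their lists. Alternatives were other tests, scalings, filters, a replicate block, and each mouse left out. Promoters came from RefSeq (GRCm38.p6). Samples of the same replicate number correlated at 0.0102 to 0.12 in their deviations, so the numbers were not treated as pairs.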

Additional observations from a re-analysis of the deposited data

Results flagged for a closer look

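The distance of the highest and of the lowest mouse from the next one was expressed as a share of the group's range, for the CPM of the 8 genes and the *Csf2rb* to *Csf2rb2* ratio in each group of 4 mice (18 sets of values). It exceeded Dixon's 95% critical value in 1 of them, where chance flags about 1 in 20 groups. This was *Flt3* in DMSO replicate 4, at 16.5 CPM against 2.59 CPM in the nearest DMSO-treated mouse (ratio 0.853). The same library had the fewest counts and detected genes of the 8 mice. It also had the largest B-lineage, osteoclast, endothelial, and sorted-cell marker sums. The part of these in its *Flt3* level was not tested.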

How the results depend on the processing

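The number of genes called higher (404) was 818 with DESeq2's Wald test, 982 with limma voom, and 80 to 1017 with 1 mouse left out, and the number called lower (41) was 414, 388, and 4 to 343, and 87 with at least 10 counts in every sample. The count of 1017 and 343 was without DMSO replicate 4. The replicate block of the labels left 18 lower genes. Of the members, 3 were called higher with DESeq2, limma voom, at least 10 counts, and the replicate block, and 0 to 3 with 1 mouse left out (3 without DMSO replicate 4). Over all tested genes, 558 of 12031 were called higher with at least 10 counts and 334 of 15421 with the block. Without DMSO replicate 4 it was 1017 of 15785. With the block, *Csf2ra* had an adjusted p of 0.0499 and *Csf2rb* 0.0396 in edgeR; each library correlated best with its own number in 2 of 4 numbers. No alternative called a member lower. *Csf3r*, *Csf2ra*, and *Csf2rb* were above 0 in all 15 alternatives and were called in 10, 5, and 5 of them, and *Kit* was above 0 in 15 and called in 0.

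*Csf1* turned to -0.00522 when only library size was used, and *Flt3* to 1.35 with limma voom and 0.66 with the block. With 1 mouse left out, log2 fold changes ran from -0.07 to 0.21 for *Csf1*, -0.00693 to 0.45 for *Csf1r*, -0.10 to 0.34 for *Csf2rb2*, and -1.68 to 0.89 for *Flt3*, which could not be tested with at least 10 counts in every sample. The *Csf2rb* to *Csf2rb2* difference stayed between 0.73 and 1.17 (exact permutation test, p from 0.0571 to 0.171). Relative to leukocyte genes, 2 or 3 members were lower without overlap. In the main setting this was found for 34.8% of all tested genes. The log2 difference of the monocyte and macrophage marker sum (1.30) was 0.62 without *Lyz2*, an alternative chosen after seeing the data. The number of mice and, for *Flt3*, counts as low as 8 limit what these data can show.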
